A study of Homo sapiens with 6 samples.

Results

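The HOX cluster genes are the genes whose symbol is HOXA, HOXB, HOXC or HOXD followed by a number, and all 39 rows of that form in the authors' deposited table, of 26485 rows in all, were taken. The cells were PC9, a line from a human lung adenocarcinoma that depends on a mutant, active EGFR. RNA of 3 libraries of untreated parental cells was compared with that of 3 libraries of cells that carry a resistant phenotype and were kept in 100 nM dacomitinib, a covalent inhibitor of EGFR-family kinases. Resistance had been selected over 6 months by raising the dose from 1 pM to 100 nM, so selection for resistance cannot be told apart from the drug present during culture. No label says whether the resistant cells are a clone or a mixed population, or whether the libraries of a group came from separate cultures.

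HOX genes encode homeodomain transcription factors that give cells their position along the body axis. They lie in 4 clusters, and in development genes at one end of a cluster (low numbers, anterior) are active earlier and closer to the head than genes at the other end (high numbers, posterior). Genes with the same number in different clusters are paralogs from cluster duplication. Adult epithelia keep part of this pattern as a positional memory held by Polycomb and Trithorax proteins, and fibroblasts carry HOX patterns that depend on their body site.

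Of the 39 genes, 26 had reads, 24 had an adjusted p-value and 13 were listed at 0 in the authors' deposited table. HOXA3 and HOXC13 fell by a modest amount, and 0 of the 24 tested genes were called higher at an adjusted p under 0.05 in the authors' Wald test (DESeq2, two-sided, Benjamini-Hochberg adjusted over all genes of their fit). Those 2 calls are 8.33% of the tested HOX genes, against 28.2% of all 13494 tested genes (13.3% higher and 14.8% lower). At an unadjusted p under 0.05 of the same Wald test, 1 HOX gene was higher and 5 were lower. No share of all tested genes was worked out at that threshold, so no direction is read from those counts. Fold changes are log2 ratios, each with the authors' standard error (SE). The headers do not state which group is the numerator. Folds were read as resistant over parental, since the series text compares resistant cells to parental ones, and every direction below, with the group name of each library, rests on that reading.

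The protein part that defines the family is the homeodomain, encoded by a homeobox of 180 bases. Homeobox DNA of HOXC13, which was called lower, and of HOXB7, the most abundant member, is shown from GENCODE 29 transcripts (GRCh38), 5′ to 3′ on the coding strand. Capitals mark the 18 bases for the DNA-contacting stretch of the third helix, which encode the same residues in all 39 genes.
HOXC13: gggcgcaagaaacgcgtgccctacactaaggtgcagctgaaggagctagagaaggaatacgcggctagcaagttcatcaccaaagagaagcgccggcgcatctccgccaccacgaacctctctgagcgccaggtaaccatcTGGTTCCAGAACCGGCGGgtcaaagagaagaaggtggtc
HOXB7: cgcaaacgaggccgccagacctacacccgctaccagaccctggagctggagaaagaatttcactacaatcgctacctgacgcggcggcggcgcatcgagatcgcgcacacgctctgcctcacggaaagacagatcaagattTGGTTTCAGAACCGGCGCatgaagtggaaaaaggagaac
The homeobox of HOXC13 (chr12:53945041-53945220, plus strand) and that of HOXB7 (chr17:48607908-48608087, minus strand) each lie in exon 2 of 2 of the transcripts used. They shared 91 of 180 bases (50.6%).

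The deposited table holds a mean over 6 libraries, but each mean is printed to 15 digits, and this allowed the whole reads per library to be recovered. A mean is a sum of whole reads, each worth a fixed amount that depends on the library's size factor. The 6 size factors implied by the lowest means were 1.08, 1.03 and 0.539 for parental libraries a, b and c, and 1.37, 1.19 and 1.06 for resistant libraries a, b and c. These letters name libraries in order of size factor and are not the replicate numbers of the labels. For 25 of the 26 detected HOX genes exactly 1 combination of reads gave the deposited mean. For HOXB7 19 combinations did, of which the one used gave the deposited fold within 4.55e-08 and the next within 0.00497. Among the 19 genes with 15 or more reads, the fold of the recovered reads differed from the deposited fold by at most 3.22e-06. For the other detected genes it differed by at most 0.249, so their reads rest on the deposited mean alone. Below, normalized reads are recovered reads divided by the size factor.

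HOX genes were a small part of the transcriptome. Their mean normalized counts summed to 872, which is 0.022% of the total over all genes in the authors' deposited table. HOXB7, a central-group gene on chromosome 17 from 48607227 to 48633572 in GENCODE 29, held 43.3% of that sum, and HOXB7, HOXA3 and HOXC13 together held 67.7%. A mean of 377 normalized counts placed HOXB7 above 85.1% of the tested genes in the authors' deposited table, while HOXA3 at 136 stood above 67.8% and HOXC13 at 77.2 above 56.8%. All other detected HOX genes had mean counts under 50, with HOXB6 (42.9), HOXB5 (39.3), HOXB9 (30.1) and HOXA2 (25.7) next in the authors' deposited table. Counts of a 3′ library do not scale with transcript length, but differences in capture between genes were not tested.

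**Figure D1:**
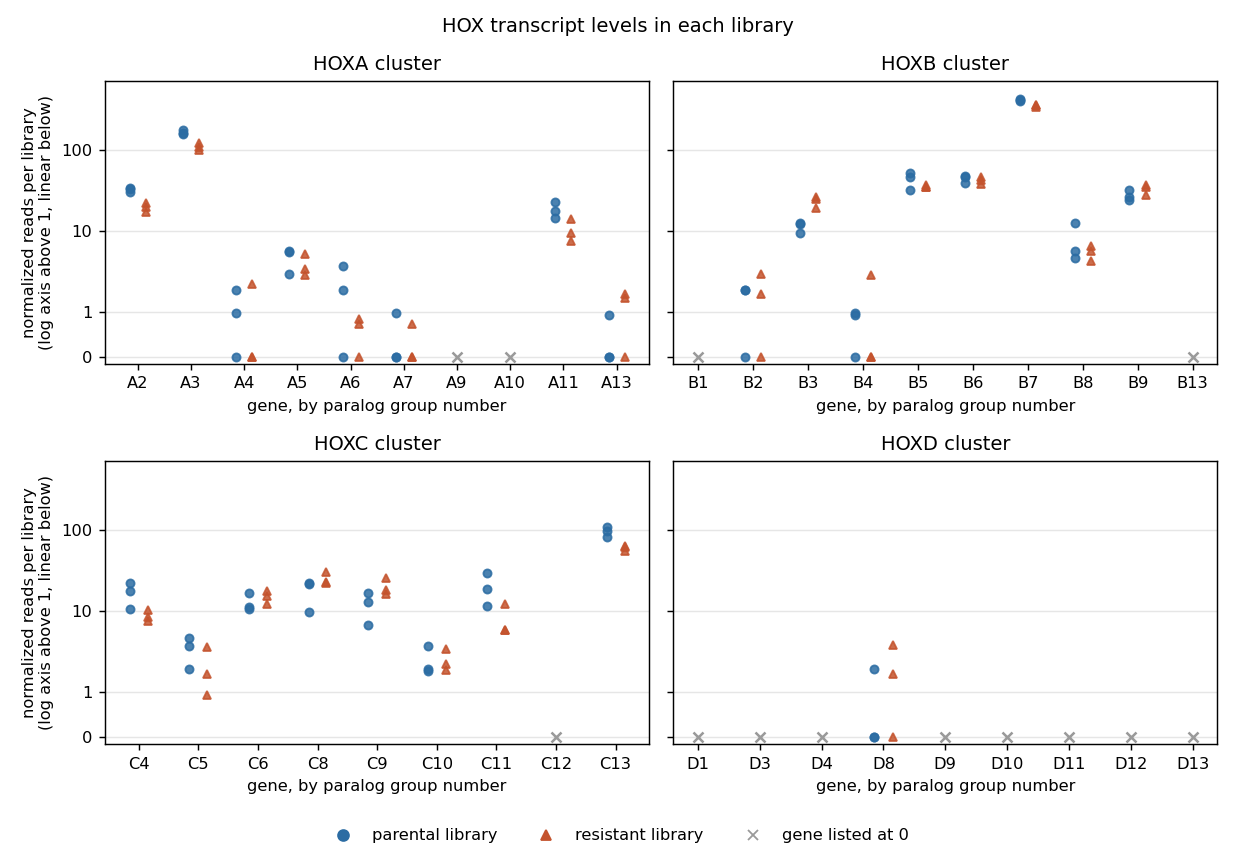
Normalized reads of the HOX genes reported here in each of 6 libraries, by cluster and paralog number (circles parental, triangles resistant, n = 3 each, log axis above 1), with crosses for genes listed at 0. HOXB7 is highest, at 397 to 417 in parental libraries, HOXD is almost empty with reads of HOXD8 only, and the groups lie close together for most genes.

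The clusters differed in how fully they were used. HOXB genes made up 59.1% of the summed HOX counts, HOXA 22.3%, HOXC 18.4% and HOXD 0.141%. Reads were found for 9 of 11 HOXA, 8 of 10 HOXB, 8 of 9 HOXC and 1 of 9 HOXD genes. The HOXD reads were 8 in all, from HOXD8, with 2 in parental and 6 in resistant libraries. By paralog group, number 7 was highest with a summed mean count of 377, followed by number 3 (153), number 13 (77.9) and number 6 (58.1), while number 12 had no reads. Levels thus did not run in one direction along the paralog numbers.

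Of the 13 genes listed at 0, 8 are in HOXD (HOXD1, HOXD3, HOXD4, HOXD9, HOXD10, HOXD11, HOXD12 and HOXD13). The others are HOXA9, HOXA10, HOXB1, HOXB13 and HOXC12. A count of 0 over 6 libraries allows up to 3 reads by counting error alone. For HOXA9 and HOXA10 the 0 is not read as absence, because the table also lists the read-through gene HOXA10-HOXA9, itself at 0, which covers the 3′ ends of both. In the authors' deposited table, 122 read-through genes had both partners listed, and 78.7% of their downstream partners stood at 0, against 17.2% of their upstream partners and 40.1% of all genes. HOXA9 is the downstream and HOXA10 the upstream partner of HOXA10-HOXA9. The 3′ end of HOXD4 lies inside the span of HOXD3 in RefSeq, itself at 0, so the 0 of HOXD4 is not read as absence either. How reads shared by 2 genes were counted is not given in the sources used here, and its part in the zeros was not tested.

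In HOXA, 1 gene fell. All 7 tested HOXA genes had a fold below 0, with a median of -0.58, where 48.4% of all tested genes were below 0. Only 1 of them, HOXA3, was called in the authors' deposited table. The direction of HOXA4 (-0.13 ± 2.07), HOXA5 (-0.27 ± 0.86) and HOXA6 (-1.65 ± 1.79) is undetermined. Outside the tested genes, HOXA7 was at -0.51 ± 3.18 and HOXA13 at 1.33 ± 2.19. Summed normalized reads of the HOXA cluster were 224, 231 and 247 in the parental libraries and 155, 162 and 149 in the resistant ones, a ratio of 0.664. The groups did not overlap, and HOXA3 supplied most of the sum in every library.

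HOXA3, an anterior-group gene needed for organs of the pharyngeal region such as thymus and parathyroid, is on chromosome 7 from 27106184 to 27152581. It had 155, 162 and 172 normalized reads in parental libraries and 98.4, 119 and 109 in resistant libraries. Every resistant library was below every parental one. The authors' deposited table gives a log2 fold change of -0.58 ± 0.16, a 1.49-fold decrease (adjusted p = 0.00215), with a 95% interval from -0.89 to -0.26. Leaving out each library in turn gave folds from -0.65 to -0.50.

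HOXA2, which patterns the hindbrain and the second pharyngeal arch, had 33.2, 32.9 and 29.7 normalized reads in parental and 21.9, 16.8 and 19.7 in resistant libraries. These groups did not overlap either, but the fold of -0.72 ± 0.35 in the authors' deposited table did not pass (adjusted p = 0.119). HOXA11, a posterior-group gene of limb and reproductive tract, had 17.5, 14.5 and 22.3 normalized reads in parental and 13.9, 9.26 and 7.52 in resistant libraries. Its groups did not overlap, and its fold of -0.78 ± 0.48 did not pass (adjusted p = 0.253, as the authors' deposited table gives it).

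The middle of the HOXA cluster had few counted reads in these 3′ libraries. HOXA4 had 5 reads over 6 libraries, HOXA5 26, HOXA6 6 and HOXA7 2, and HOXA13 had 5. In the authors' deposited table the 95% intervals of HOXA4, HOXA5 and HOXA6 ran at least from -1.95 to 1.41, so a 2-fold difference either way was not detectable at this depth. HOXA7 and HOXA13 had no adjusted p. The 3′ ends of HOXA4, HOXA5 and HOXA6 lie inside the spans of HOXA3 and of an antisense gene in RefSeq. That of HOXA7 lies inside the antisense gene HOXA-AS3. Since the sources used here do not give strand use in counting, the counts of HOXA4, HOXA5, HOXA6 and HOXA7 are uncertain.

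**Figure D2:**
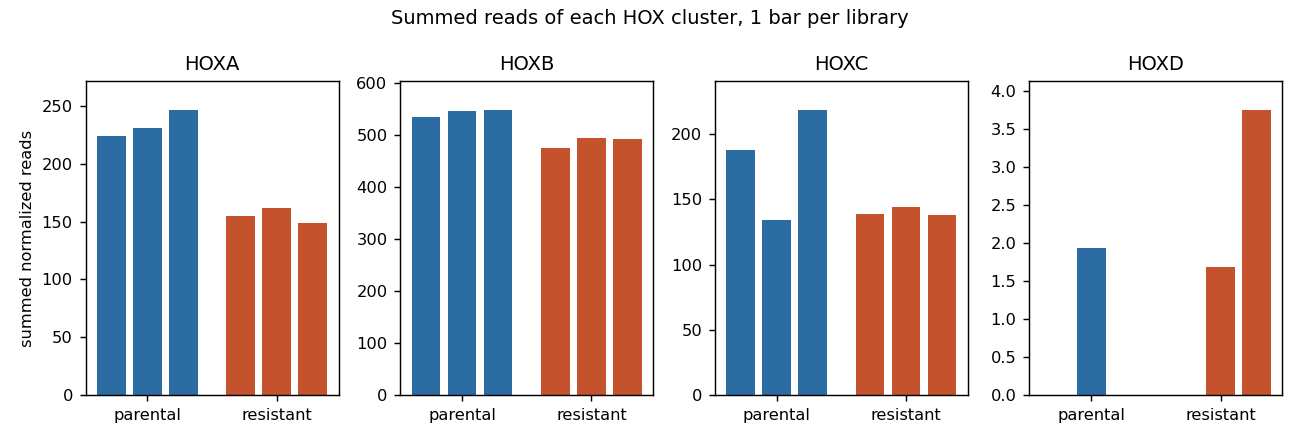
Summed normalized reads of each HOX cluster, with 1 bar per library (blue parental, orange resistant) and a separate axis from 0 for each cluster. HOXA sums are 224 to 247 in parental and 149 to 162 in resistant libraries, HOXB sums 535 to 549 and 475 to 494, HOXC sums overlap, and HOXD rests on 8 reads.

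HOXB genes did not pass the test, in either direction. Of 8 tested HOXB genes, 4 were above and 4 below 0 with a median of 0.08, and 0 were called in the authors' deposited table. The cluster sum was 535, 547 and 549 in parental and 475, 494 and 493 in resistant libraries, a ratio of 0.897, and HOXB7 supplied most of it in every library. HOXB7, whose product is often abundant in epithelial tumours, had 410, 397 and 417 normalized reads in parental and 333, 353 and 353 in resistant libraries. The groups did not overlap, yet its fold was small, -0.24 ± 0.10, and missed the threshold (adjusted p = 0.0728, as the authors' deposited table gives it). Its 95% interval from -0.44 to -0.03 leaves out a 2-fold change either way.

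HOXB3, the paralog of HOXA3, had values on the other side of 0. It had 12, 12.6 and 9.27 normalized reads in parental and 19, 26.1 and 24.4 in resistant libraries, without overlap. Its fold of 1.00 ± 0.44 did not pass (adjusted p = 0.0784, as the authors' deposited table gives it), and the difference between HOXA3 and HOXB3 was not tested. The third member of that group, HOXD3, was listed at 0.

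HOXB5, HOXB6 and HOXB9 did not pass the test. HOXB6 had 47.9, 45.5 and 39 normalized reads in parental and 42.3, 45.4 and 37.6 in resistant libraries. HOXB5 had 31.4, 46.4 and 51.9 against 35, 36.2 and 34.8, and HOXB9 had 25.8, 31.9 and 24.1 against 36.4, 27.8 and 34.8 normalized reads. The groups of all 3 genes overlap. The 95% intervals in the authors' deposited table were -0.84 to 0.31 for HOXB5, -0.63 to 0.44 for HOXB6 and -0.38 to 0.90 for HOXB9, all inside a 2-fold change either way. HOXB8 had 41 reads, 13 of them in parental library b, and its fold of -0.50 ± 0.71 in the authors' deposited table turned to 0.14 without that library. HOXB2, with 9 reads, and HOXB4, with 5, had folds of 0.43 ± 1.59 and 0.32 ± 2.11 from the authors' deposited table, which leave the direction undetermined. In RefSeq the 3′ end of HOXB4 lies inside HOXB3, that of HOXB3 inside HOXB-AS1 and those of HOXB5 and HOXB6 inside HOXB-AS3. These counts may include reads of the overlapping gene or lack shared reads, since the counting of shared reads is not given.

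In HOXC, too, 1 gene fell. Of 8 tested HOXC genes, 4 were above and 4 below 0 with a median of -0.30, and 1 was called lower in the authors' deposited table. HOXC13, the most posterior gene of the cluster and a regulator of hair and nail keratins, is on chromosome 12 from 53938765 to 53946544. It had 96.8, 81.3 and 108 normalized reads in parental and 62.7, 60.6 and 54.5 in resistant libraries, so every resistant library was lower. Its log2 fold change was -0.66 ± 0.21, a 1.58-fold decrease (adjusted p = 0.008, as the authors' deposited table gives it), with a 95% interval from -1.08 to -0.25. Without each library in turn the fold stayed between -0.77 and -0.58.

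HOXC11, a posterior-group gene, was the nearest to the threshold among genes not called. It had 18.4, 11.6 and 29.7 normalized reads in parental and 5.83, 5.89 and 12.2 in resistant libraries, which overlap at a single library on each side. The authors' deposited table gives -1.28 ± 0.52 with adjusted p = 0.0504, and adjusting only over genes with a mean count of at least 10 gave 0.0406. HOXC4 had 17.5, 10.6 and 22.3 against 10.2, 7.57 and 8.46 normalized reads, without overlap, and did not pass at -0.89 ± 0.51 (adjusted p = 0.205, as the authors' deposited table gives it).

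HOXC6, HOXC8 and HOXC9, of the middle of the cluster, were above 0 without passing. The authors' deposited table gives folds of 0.29 ± 0.48 for HOXC6, 0.52 ± 0.41 for HOXC8 and 0.71 ± 0.47 for HOXC9, with adjusted p of 0.739, 0.4 and 0.3. HOXC9 had 16.6, 6.77 and 13 normalized reads in parental and 16, 25.2 and 17.9 in resistant libraries. Parental library b was the lowest for both HOXC8 (9.67) and HOXC9, and the groups of all 3 genes overlap. HOXC5 and HOXC10 had 17 and 15 reads, with folds of -0.67 ± 1.07 and 0.07 ± 1.11 from the authors' deposited table. The 3′ ends of HOXC5 and HOXC6 lie inside the span of HOXC4 in RefSeq, which leaves their counts uncertain.

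HOXD8, the one HOXD gene with reads, had 0, 1.93 and 0 normalized reads in parental and 0, 1.68 and 3.76 in resistant libraries. Its fold of 1.27 ± 1.79 did not pass (adjusted p = 0.688, by the authors' deposited table), and its groups overlap.

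**Figure D3:**
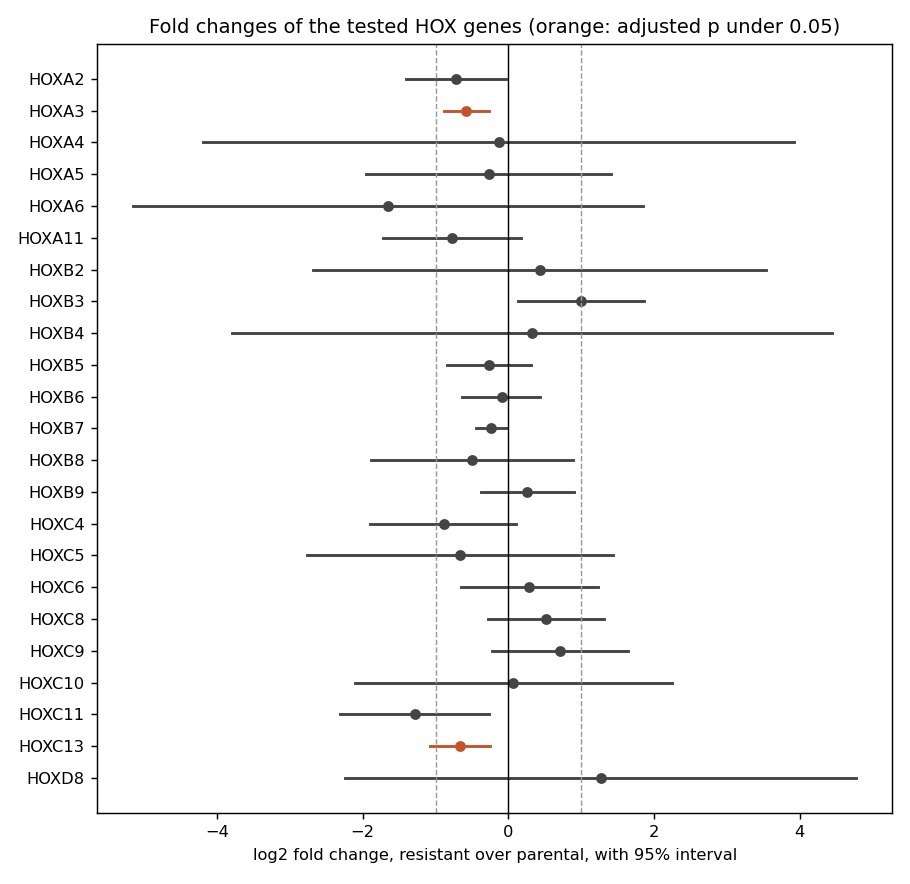
Log2 fold change of the tested HOX genes reported here, in cluster order, from the authors' deposited table, with 95% normal intervals from their SE and dashed lines at a 2-fold change. The intervals of HOXA3 and HOXC13, the 2 called genes in orange, lie below 0, and most other intervals reach past 2-fold in some direction.

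Precision differed widely between genes. Among the 24 tested HOX genes, 5 had a 95% interval inside a 2-fold change either way, 4 of them not called, and the other 19 intervals were wider. Of the HOX genes, 8 had a mean count under 5, a range in which 4.89% of all tested genes were called, 13 lay from 5 to under 50 (19% called), and 3 at 50 or more (41.5% called), in the authors' deposited table. HOX calls in these ranges numbered 0, 0 and 2. Over all 24, 15 folds were below 0 (62.5%) against 48.4% of all tested genes, with a median of -0.25 against 0.02 in the authors' deposited table.

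Overlap of libraries was compared with that of all tested genes at mean counts from 5 to under 50. In that range the groups of 4 of 13 HOX genes (30.8%) did not overlap, HOXB3 higher and HOXA2, HOXA11 and HOXC4 lower. The same held for 41.3% of the 4164 tested genes with recovered reads in that range, 25.2% higher and 16.1% lower. No such share was worked out outside that range. It is thus missing for HOXA3, HOXC13, HOXB7, HOXA10-AS, PBX3, PBXIP1, RARA and MEIS1, whose groups did not overlap either. It is missing too for sums over genes, such as those of the HOXA and HOXB clusters.

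**Figure D4:**
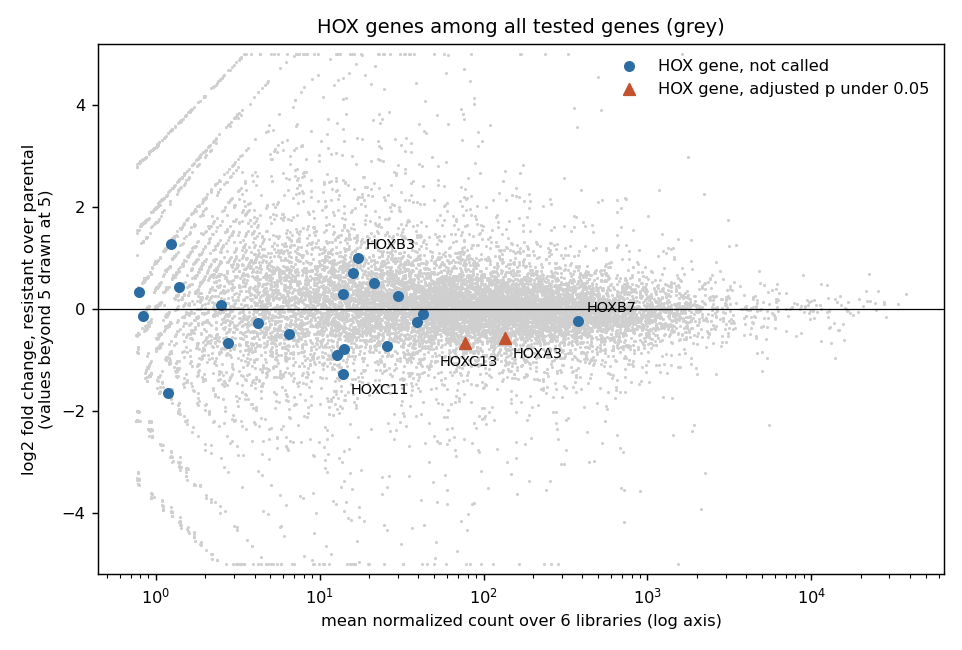
Log2 fold change against mean normalized count (log axis) for tested genes (grey) and the tested HOX genes reported here (blue, or orange triangles where called), with grey folds past 5 drawn at 5, from the authors' deposited table. HOX folds run from -1.65 to 1.27, and the widest lie at mean counts under 5.

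Grouped by position along the clusters, the anterior genes (numbers 1 to 3) had summed normalized reads of 212, 224 and 224 in parental and 152, 175 and 164 in resistant libraries. Central genes (4 to 8) had 557, 542 and 590 against 477, 493 and 492, and posterior genes (9 to 13) had 178, 148 and 200 against 139, 134 and 129. All 3 sums were lower in every resistant library, with ratios of 0.743, 0.866 and 0.762. No share of all genes was worked out for such sums, so no cluster-wide fall is read from them. Summed over all 26 detected genes, normalized reads were 947, 914 and 1015 in parental and 768, 802 and 784 in resistant libraries, a ratio of 0.819. The most abundant genes of the anterior, central and posterior sums were HOXA3, HOXB7 and HOXC13, so the sums are not independent of the single genes above.

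Among noncoding RNAs of the clusters, HOXA10-AS fell. The set used for these also holds the small protein-coding genes PRAC1 and PRAC2, both listed at 0. The authors' deposited table lists 25 genes of the set, with 15 at 0, 7 tested and 1 called lower (14.3%, where 14.8% of all tested genes were lower). HOXA10-AS, an RNA antisense to HOXA10 on chromosome 7 from 27168619 to 27171915, had 101, 106 and 85.3 normalized reads in parental and 43.7, 47.1 and 44.2 in resistant libraries. It fell by 1.13 ± 0.22 (adjusted p = 2.69e-06, as the authors' deposited table gives it). It overlaps the 3′ end of HOXA10, so reads of the 2 cannot be told apart without strand.

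HOTAIR, a HOXC antisense RNA known from work on Polycomb recruitment, had 3.69, 2.9 and 5.56 against 3.64, 5.89 and 11.3 normalized reads, and did not pass (adjusted p = 0.523, as the authors' deposited table gives it). HOTAIRM1, at the anterior end of HOXA, had 4 reads, and HOTTIP, at the posterior end, was listed at 0. HOXA11-AS, which had 3.69, 4.84 and 3.71 against 6.56, 7.57 and 13.2 normalized reads, lay above 0 while HOXA11 lay below, and did not pass (1.13 ± 0.73, adjusted p = 0.276 by the authors' deposited table). HOXC13-AS, which overlaps the start of HOXC13, had 23.1, 25.2 and 26 against 21.9, 16.8 and 16 normalized reads, without overlap. It was at -0.42 ± 0.38 and did not pass (adjusted p = 0.482, as the authors' deposited table gives it). The microRNA genes of the clusters, from the miR-10 and miR-196 families and miR-615, were listed at 0. Libraries of polyadenylated RNA do not measure mature microRNAs, so these zeros, part of those counted above, are not read as absence.

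HOX proteins bind DNA with cofactors of the PBX and MEIS families. Of 10 tested cofactor genes and relatives, 2 were higher and 1 lower (30%), a share close to the 28.2% of all tested genes, by the authors' deposited table. PBX3, a member of the PBX family, had 38.7, 36.8 and 37.1 normalized reads in parental and 83.8, 99.3 and 79 in resistant libraries. It rose by 1.22 ± 0.24 (adjusted p = 5.44e-06, as the authors' deposited table gives it). PBXIP1, whose product binds PBX proteins and blocks their DNA binding, had 30.4, 39.7 and 31.5 against 132, 119 and 146 normalized reads. It rose by 1.95 ± 0.23 (adjusted p = 6.22e-16, as the authors' deposited table gives it), and for PBX3 and PBXIP1 alike the groups did not overlap. MEIS1 had 7.38, 6.77 and 5.56 against 2.19, 2.52 and 3.76 normalized reads, without overlap, but did not pass at -1.26 ± 0.83 (adjusted p = 0.288, as the authors' deposited table gives it).

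**Figure D5:**
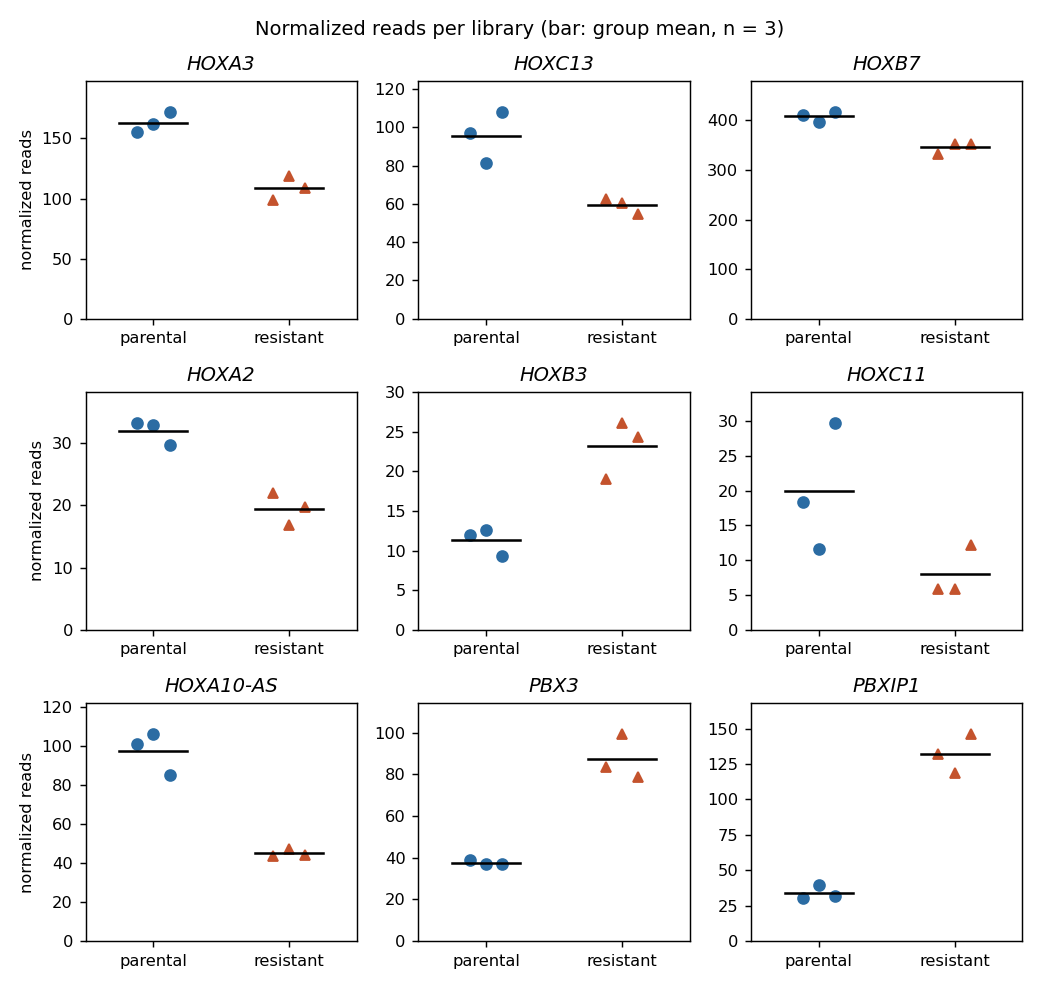
Normalized reads per library (circles parental, triangles resistant, bars group means, n = 3, axes from 0) for HOX genes near or past the threshold, HOXA10-AS and cofactor genes called higher. HOXA3, HOXC13, HOXB7, HOXA2 and HOXA10-AS are lower and HOXB3, PBX3 and PBXIP1 higher in every resistant library, while HOXC11 overlaps.

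Polycomb proteins keep HOX clusters silent and Trithorax proteins keep them active. The authors' deposited table calls 3 of 34 tested Polycomb genes higher and 2 lower (14.7%, against 28.2% of all tested genes), with a median fold of 0.15. EZH2, the H3K27 methyltransferase, had 235, 261 and 317 against 307, 312 and 302 normalized reads, which overlap, and a fold of 0.20 ± 0.12 (adjusted p = 0.251, as the authors' deposited table gives it). For EZH2, 6 combinations of reads gave the deposited mean. The one used gave the deposited fold within 5.44e-08 and the next within 0.0249. The Polycomb subunit genes PCGF3 (0.67 ± 0.21), RBBP4 (0.53 ± 0.20) and RING1 (0.48 ± 0.15) rose and ASXL2 (-1.29 ± 0.27), a partner of the H2A deubiquitinase BAP1, fell in the authors' deposited table. BMI1 was listed at 0, and it too is the downstream partner of a read-through gene. Of 24 tested Trithorax and MLL complex genes, 1 was higher and 4 lower (20.8%, against the same 28.2%), with a median of -0.09, in the authors' deposited table.

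KMT2A, the methyltransferase best known for maintaining HOX expression, had 106, 97.7 and 96.4 against 97, 96.8 and 87.4 normalized reads and did not pass (-0.10 ± 0.18, adjusted p = 0.773 by the authors' deposited table). Its partner menin, encoded by MEN1, was at -0.70 ± 0.12 (adjusted p = 1.27e-07) and DPY30, a core subunit, at 0.59 ± 0.08 (adjusted p = 1.67e-12, as the authors' deposited table gives it). ASH1L (-0.53 ± 0.21) and MLLT1 (-0.35 ± 0.10) were also called lower in the authors' deposited table.

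Retinoic acid induces anterior HOX genes through nuclear receptors. The authors' deposited table calls 5 of 17 tested upstream regulators lower and 1 higher (35.3%), with a median fold of -0.26. That share is near the 28.2% of all tested genes. RXRA, the partner of retinoic acid receptors, was at -1.55 ± 0.10 (adjusted p = 8.26e-51) and the receptor gene RARA at -0.66 ± 0.18 (adjusted p = 0.00214, as the authors' deposited table gives it). RARA had 135, 153 and 156 against 86.7, 117 and 76.1 normalized reads, without overlap. YY1 (-0.32 ± 0.12) and the cohesin subunit gene RAD21 (-0.26 ± 0.09) were lower too in the authors' deposited table.

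The remaining called genes of that list were chosen for naming after their values were seen. CYP26A1, which breaks down retinoic acid and is itself induced by it, had 19.4, 17.4 and 16.7 against 2.19, 4.21 and 4.7 normalized reads, a log2 fold of -2.31 ± 0.61 (adjusted p = 9.31e-04, as the authors' deposited table gives it). RARB, another receptor gene that retinoic acid induces, had 0 reads in all 3 parental libraries and 23 in the resistant ones. Its resistant libraries had 8.02, 5.89 and 4.7 normalized reads, and the authors' deposited table gives it an adjusted p of 0.00426. The CDX genes, direct activators of central HOX genes, were listed at 0.

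Among other homeobox genes that sit in or descend from clusters, 0 of 6 tested were higher and 1 was lower, DLX3 (16.7%, against 28.2% of all tested genes called), in the authors' deposited table. DLX3, a regulator of epidermal differentiation named after its value was seen, had 17.5, 21.3 and 7.42 normalized reads in parental and 0, 0.842 and 0.94 in resistant libraries. EVX1, beside HOXA13, had almost no reads (a mean count of 0.313) and EVX2, beside HOXD13, was listed at 0 in the authors' deposited table.

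Genes beside the clusters were called in both directions around HOXA, HOXB and HOXC. Within 1 Mb of the ends of HOXA, 8 neighbours were tested, 2 higher and 3 lower (62.5%, against 28.2% of all tested genes) with a median of -0.19, and the nearest were SKAP2 (-0.29 ± 0.15, adjusted p = 0.145) and HIBADH (0.45 ± 0.16, adjusted p = 0.0241) in the authors' deposited table. Around HOXB 7 of 27 were higher and 5 lower (44.4%), and around HOXC 8 of 30 were higher and 6 lower (46.7%), with medians of 0.02 and 0.07 in the authors' deposited table. The nearest tested genes were SNX11 (-0.08 ± 0.25) and CALCOCO2 (1.36 ± 0.50) for HOXB and CALCOCO1 (1.36 ± 0.43) and SMUG1 (0.14 ± 0.14) for HOXC, in the authors' deposited table. Around HOXD, 2 of 3 were higher and 0 lower (66.7%) by the authors' deposited table, MTX2 and the noncoding LINC01116 (3.29 ± 0.80, adjusted p = 2.65e-04), the latter named after its value was seen. MTX2, which lies 78488 bases beyond HOXD1, had a mean count of 565 and a fold of 0.27 ± 0.09 (adjusted p = 0.0113, as the authors' deposited table gives it), next to a HOXD cluster with 8 reads. ATF2, the nearest tested gene found on the other side, lies 924509 bases from the cluster, farther than EVX2, which was listed at 0. ATF2 was at 0.54 ± 0.39 (adjusted p = 0.345, as the authors' deposited table gives it). Completeness of these neighbour lists was not tested, so nearer genes may be missing and the counts of neighbours may be too low.

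Markers of cell types other than carcinoma cells were read beside these results, since fibroblasts carry HOX patterns of their own. Of 16 fibroblast markers, 8 were listed at 0 (COL1A2, DCN, LUM, PDGFRA, FBLN2, POSTN, TWIST2 and PRRX1), while all 6 tested ones were called, against 28.2% of all tested genes, by the authors' deposited table. The growth factor receptor gene PDGFRB rose by 8.17 ± 0.60, the collagen gene COL1A1 by 4.11 ± 0.82, the complement gene C1S by 2.67 ± 0.42 and the transcription factor gene TWIST1 by 2.14 ± 0.60 on the log2 scale of the authors' deposited table. COL1A1 and TWIST1 rest on low mean counts of 13.9 and 11.8. FBLN1, a matrix protein gene, fell by 2.35 ± 0.13 and SFRP1, a secreted WNT inhibitor gene, by 0.76 ± 0.12 on the same scale of the authors' deposited table. Their summed fitted counts, 858 for parental and 1058 for resistant cells from the authors' deposited table, join members that moved far in opposite directions. Of 6 epithelial markers, KRT7 (0.68 ± 0.06) and EPCAM (0.31 ± 0.05) were higher and KRT8 (-0.65 ± 0.07) and KRT18 (-0.61 ± 0.07) lower, with sums of 56361 and 58966, by the authors' deposited table. Of 7 lung epithelial markers NKX2-1 and SFTPC were listed at 0 and 1 of 3 tested was lower, FOXA1, by the authors' deposited table. FOXA1 (mean count 270, -1.01 ± 0.12) made up most of the sums of 364 and 184. NAPSA (3.09 ± 1.55) and FOXA2 (-3.89 ± 1.87), at mean counts of 2.12 and 1.24, did not pass. Endothelial markers summed to 35 and 14.3 from the authors' deposited table, mostly CDH5 (mean count 23.4, -1.20 ± 0.38). The part of these markers in the HOX values was not tested, and fewer cells of a kind cannot be told apart from less RNA per cell in these bulk libraries.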

How the data were processed

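Polyadenylated RNA of 3 parental and 3 resistant PC9 samples was sequenced from 3′ ends (a bulk form of MARS-seq, per the labels' protocols). The submitters' processing notes name STAR, cutadapt, DESeq2 and HTSeq, with GRCh38 (hg38) as the build. Versions, strand use and the handling of molecular barcodes are not given in the sources used here. The authors' deposited table gives 1 row per gene: a signal, which is the normalized count averaged over the libraries, a log2 fold change with its SE, a Wald statistic (a score), a p-value and a Benjamini-Hochberg adjusted p-value. Since the table holds no counts per library, the planned count test was not run and the authors' calls are described. Recomputing their adjustment gave a largest difference of 1.61e-15.

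Reads per library were recovered by searching whole-read combinations within 40 to 90% of the fitted group level (at least 12 reads) that sum to the deposited mean. Every one of the 3171 genes with a mean above 0 and below 1.5 had exactly 1 combination. In simulated data at the levels of 25 detected HOX genes, 100 of 100 sets of reads were recovered. Summed over genes, the mean normalized counts came to 3965670, and size factors ran from 0.539 to 1.37. No counting intervals were computed, and the limit of 3 reads for a count of 0 covers counting error only. Since separate cultures are not stated, the p-values cover only sample-to-sample spread, possibly technical.

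Members follow the symbol rule. Other lists name up to 4 called genes of the largest fold with a mean count of at least 20. Set genes such as EZH2 and the nearest tested neighbours are named too. Cell type markers were named outside these limits. Members and lists were chosen with earlier results of these data known. A few items, among them 1 HOX gene, are not reported here, though counts, sums and medians include them. Positions are those of GENCODE 29 (GRCh38), and spans over 3′ ends are those of RefSeq. Numbers were computed with Python 3.11.15, pandas 2.3.3 and scipy 1.17.1.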

Additional observations from a re-analysis of the deposited data

How the results depend on the processing

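With an adjusted p under 0.1 in the authors' Wald test the HOX genes called were 1 higher (HOXB3) and 4 lower. Asking for at least a 2-fold change left 0 lower, where 10.2% of all tested genes were called. The same test calls 1 higher and 5 lower at an unadjusted p under 0.05. Apart from the 2-fold setting, no share of all tested genes called was worked out for the settings or libraries left out below. The HOX counts under them thus have no background to be read against. With an adjusted p under 0.01, no filter on low counts, a mean count of at least 10 or of at least 50, or centred folds, 2 or 3 HOX genes were lower and 0 higher. The third was HOXC11 from a mean of 10, and HOXB7 from a mean of 50, a level that only 3 HOX genes reach. Over the settings that give one, the median fold of the tested genes ran from -0.26 to -0.22. Leaving out each library in turn, an alternative chosen after seeing the data that kept the dispersion implied by the deposited SE and the unadjusted p of the last call (0.0141), gave 0 genes higher and 2 to 3 lower. HOXC11 passed without parental library b (-1.58) or resistant library c (-1.71), and the median fold was not refitted there. Some folds of rarely read genes changed sign between libraries left out, from -0.83 to 0.68 for HOXA4, -1.08 to 0.11 for HOXA7, -0.44 to 1.09 for HOXB2, -0.07 to 1.00 for HOXB4, -0.80 to 0.14 for HOXB8 and -0.21 to 0.39 for HOXC10, while HOXA5, HOXA6, HOXC5 and HOXD8 kept theirs. No paired analysis was possible because the recovered libraries are not tied to replicate numbers, so the replicate block was not run. Other normalizations of the counts (edgeR with TMM) need reads of all genes and were not run. Depth limits the 8 tested genes with a mean count under 5, whose median SE was 1.69.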
